A study of Mus musculus with 8 samples.

Results

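Wnt signalling was examined in mouse lung through 10 genes, 7 Wnt ligands (Wnt3a, Wnt2, Wnt4, Wnt5a, Wnt7a, Wnt7b and Wnt11) and 3 feedback targets (Axin2, Lef1 and Nkd1), out of 24584 genes in the tables. They were picked by symbol as the ligands of lung and the targets that report the pathway, and they were chosen with the comparison of the groups already known, in which Wnt3a had stood out. Their differences between the groups are therefore given as a description, with a standard error, and nothing is read from their p values. RNA of lung tissue was sequenced from 8 male ICR mice aged 6 to 8 weeks. LPS from Escherichia coli O111:B4, a bacterial cell wall component used to model sepsis, was injected intraperitoneally at 5 mg/kg in all 8 mice, and the lungs were taken 12 h later. In the LPS + Tan group (n = 4) tangeretin, a polymethoxylated flavonoid of citrus fruits, came 30 min ahead of LPS at a dose of 50 mg/kg, by the same route, and in the LPS group (n = 4) it was not. Neither lungs without LPS nor lungs with tangeretin alone were analysed here, so that every difference below is between LPS-treated lungs, and a sham injection in place of tangeretin is not described for the LPS group. The labels name the samples as separate samples of a group and the methods describe treatment per mouse.

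Wnt proteins are secreted, lipid-modified signals that act over short distances. In the canonical branch a Wnt bound to a Frizzled receptor and an LRP co-receptor stops the destruction complex, in which Axin and APC hold β-catenin for phosphorylation, and β-catenin then enters the nucleus and acts with TCF/LEF factors. Axin2 and Nkd1 are induced by this branch and dampen it, and Lef1 encodes one of the TCF/LEF factors. Wnt2 and Wnt7b are best known in lung for growth of the mesenchyme and epithelium during development, and Wnt5a and Wnt11 mostly for signalling that does not use β-catenin.

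All 8 libraries had between 38895654 and 39931970 counts, so that depth hardly differed. Markers of lung were high in every sample, with a Sftpc level of 3358 to 7132 CPM (counts per 1000000 counts, scaled with TMM factors), while Krt5, a basal cell marker of the large airways, had at most 1 count. No gene of 15706 tested passed an adjusted p of 0.05 in edgeR's quasi-likelihood test (0 called, 0%), while DESeq2 called 35, and 451 genes (2.87%) were higher and 353 (2.25%) lower in LPS + Tan at an unadjusted p below 0.05. With the study's fold threshold added, an absolute log2 fold change above 1, the shares were 0.35% (55 genes) higher and 0.299% (47 genes) lower. All 4 LPS + Tan samples lay above all 4 LPS samples for 248 genes (1.58%) and below them for 181 (1.15%). In bulk lung tissue, fewer cells of a type and less RNA per cell cannot be told apart.

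The sequence before the start of 3 of these genes is shown first, for Wnt3a and Wnt7a because their levels differed most between the groups, and for Wnt11 because it alone held the motif searched for. RefSeq windows of the 250 bases before a start (GRCm38.p6) were on hand for 8 of the 10 genes, 12 windows in all, and not for Wnt5a and Wnt7b. The only windows of Axin2, Nkd1 and Wnt2 lay before inner starts, so the sequence before their outermost starts was not searched. The TCF/LEF core was searched as CTTTGAA or CTTTGAT and, on the other strand, TTCAAAG or ATCAAAG. No other motif was searched. Only the window of the first start of Wnt11 held it, once, beginning 51 bases before the start, while 7.48% of 32851 windows of this length and 8.63% of 27025 genes with a window held it. A match is a string of letters and not a measured binding site, and none in this window says nothing of the factors. The stretches below run 5′ to 3′ on the strand of the gene, with the motif in capitals, and leave out bases that GENCODE M21 places in an exon or that lie within the span RefSeq gives the gene. That of Wnt3a is chr11:59290753-59291001 (minus strand, 249 bases), that of Wnt7a chr6:91411364-91411512 (minus, 149 bases) and that of Wnt11 chr7:98834862-98835083 (plus, 222 bases).
Wnt3a: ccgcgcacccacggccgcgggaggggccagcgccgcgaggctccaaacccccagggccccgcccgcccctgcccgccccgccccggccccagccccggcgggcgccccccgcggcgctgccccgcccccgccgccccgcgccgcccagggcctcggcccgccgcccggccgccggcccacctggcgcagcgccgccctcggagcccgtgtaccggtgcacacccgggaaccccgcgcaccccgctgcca
Wnt7a: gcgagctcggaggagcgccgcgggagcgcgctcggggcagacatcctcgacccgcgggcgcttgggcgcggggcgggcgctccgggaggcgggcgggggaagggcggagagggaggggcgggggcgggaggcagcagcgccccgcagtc
Wnt11: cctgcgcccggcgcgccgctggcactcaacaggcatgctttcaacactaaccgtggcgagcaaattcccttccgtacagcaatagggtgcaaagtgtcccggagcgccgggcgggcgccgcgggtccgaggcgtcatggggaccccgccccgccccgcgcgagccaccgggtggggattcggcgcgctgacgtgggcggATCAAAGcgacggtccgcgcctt
The Wnt3a window is 87.6% G or C, above 99.96% of all windows, and that of Wnt4 is 85.2%. The windows of Wnt7a (77.6%), the first start of Wnt11 (70.8%) and an inner start of Axin2 (69.2%) are also above the median of all windows, 52.4%. At the low end are the windows of the 2 inner starts of Lef1, with 50.8% and 44.8%.

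Wnt3a, a ligand of the canonical branch, was the gene of the 10 whose level differed most, with a mean of 2.24 ± 0.676 CPM (SD, n = 4) in LPS + Tan and 0.713 ± 0.338 CPM in LPS. The LPS lungs 1 to 4 had 0.869, 0.582, 0.313 and 1.09 CPM, from 34, 23, 12 and 42 reads. The LPS + Tan lungs 1 to 4 had 2.83, 1.27, 2.38 and 2.49 CPM, from 115, 50, 98 and 96 reads. The groups did not overlap, with or without TMM factors, and LPS + Tan replicate 2 was close to LPS replicate 4. The log2 fold change was 1.65 (SE 0.39), a 3.14-fold difference that spans 2.40 to 4.10 at 1 SE on either side. With these few reads the spread was still 6.16 times counting noise in LPS and 8.63 times in LPS + Tan, as a ratio of variances, and the part of the mouse and of library preparation in it cannot be told apart. With 1 sample left out at a time the value lay between 1.40 and 1.92.

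Wnt7a, a ligand made in epithelium, was the other gene whose groups did not overlap. Its level was 6.19, 6.25, 4.65 and 4.46 CPM in the LPS lungs and 9.86, 6.74, 8.75 and 7.90 CPM in the LPS + Tan lungs, means of 5.39 ± 0.966 and 8.31 ± 1.32 CPM. The log2 fold change was 0.63 (SE 0.17), which is 1.54-fold. Replicate 2 was again the lowest of LPS + Tan and replicate 1 the highest, as for Wnt3a. The choice of genes used this contrast, so that nothing is read from the 2 of 10 genes (Wnt3a and Wnt7a) whose groups did not overlap, beside 1.58% of all genes in that direction.

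**Figure D1:**
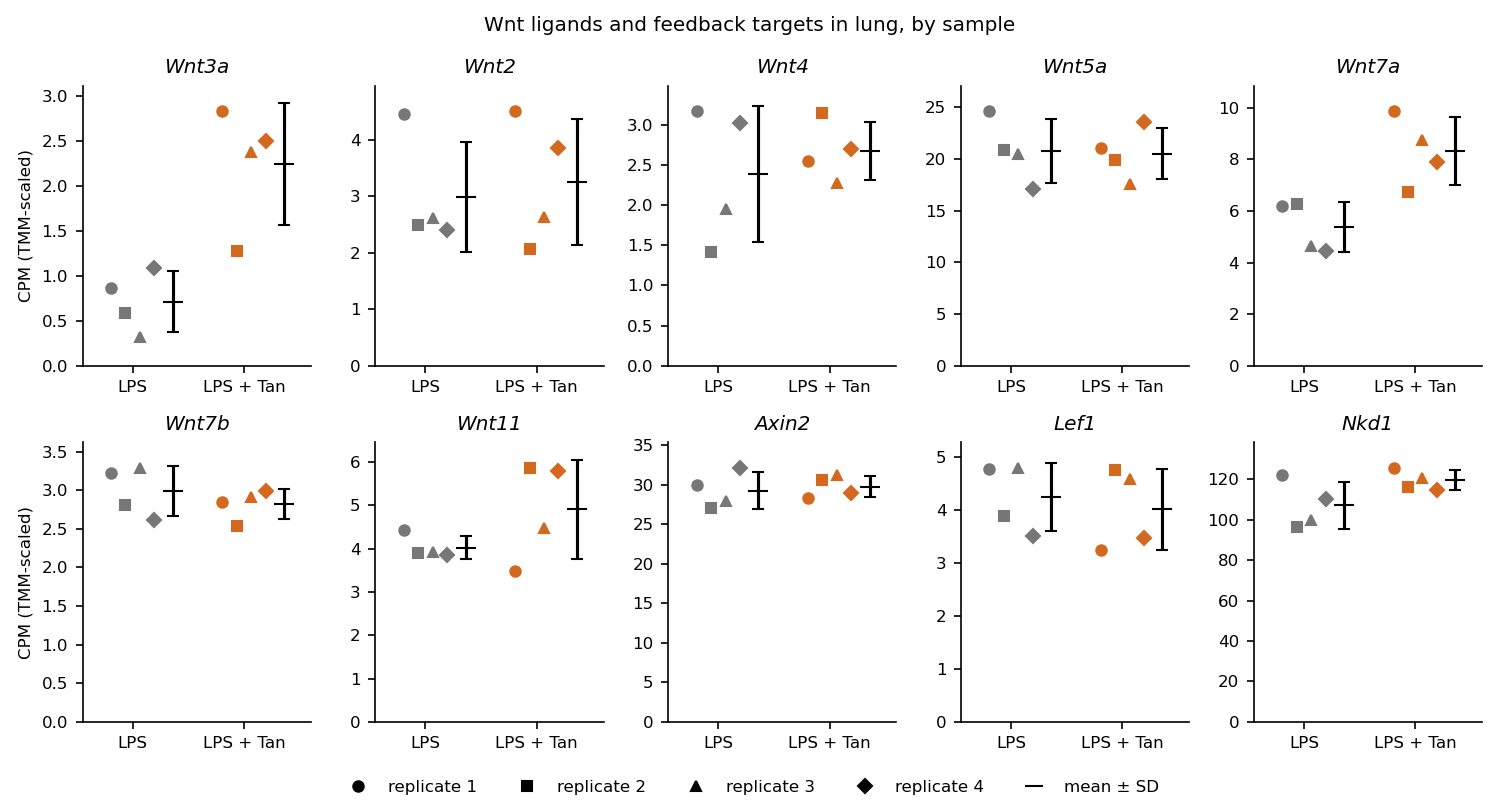
TMM-scaled CPM (linear axis from 0) of the 10 genes in each lung, LPS in grey and LPS + Tan in orange, with 1 symbol per replicate number and the mean ± SD of each group (n = 4) in black. Only the panels of Wnt3a and Wnt7a show every LPS + Tan lung above every LPS lung, and the 3 targets on the lower row stay within overlapping ranges.

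The other 5 ligands had overlapping groups. Wnt2, a ligand of lung fibroblasts and of lung specification in the embryo, had 4.45, 2.48, 2.61 and 2.41 CPM in LPS and 4.50, 2.06, 2.62 and 3.85 CPM in LPS + Tan. Its spread was wide in both groups. Replicate 1 stood highest in each, and replicate 4 of LPS + Tan was also above its group mean. The log2 fold change of 0.12 (SE 0.29) turned to -0.075 without LPS + Tan replicate 1 and to 0.38 without LPS replicate 1. For Wnt4 the values were 3.17, 1.42, 1.96 and 3.03 CPM in LPS and 2.56, 3.15, 2.28 and 2.70 CPM in LPS + Tan, a log2 fold change of 0.16 (SE 0.27) that lay between -0.030 and 0.32 with 1 sample left out. All 4 LPS + Tan lungs lay inside the range of the LPS lungs.

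Wnt5a, the ligand of the 7 with the highest median level per gene length, had 24.6, 20.9, 20.5 and 17.1 CPM in LPS and 21.1, 19.96, 17.6 and 23.6 CPM in LPS + Tan. Its means of 20.8 ± 3.08 and 20.5 ± 2.49 CPM differed by less than the spread between mice, with a log2 fold change of -0.017 (SE 0.13) whose sign changed in 4 of 17 alternative fits or scalings. Wnt7b, which is made by alveolar epithelium, varied little beyond counting noise, with 2.62 to 3.29 CPM in LPS and 2.54 to 2.99 CPM in LPS + Tan, a spread of 1.29 and 0.682 times counting noise. Its log2 fold change was -0.080 (SE 0.16). Wnt11 had 4.42, 3.90, 3.92 and 3.86 CPM in LPS, a spread below counting noise (0.803 times), and 3.49, 5.87, 4.47 and 5.79 CPM in LPS + Tan (8.56 times). The lungs of the LPS + Tan group thus lay on both sides of the LPS lungs. The log2 fold change was 0.29 (SE 0.19), or 0.19 without LPS + Tan replicate 2 and 0.42 without LPS + Tan replicate 1.

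The 3 feedback targets had overlapping groups, and Nkd1 differed most of them. Axin2, a scaffold of the destruction complex and the target most often used to read canonical signalling, had 30.0, 27.0, 27.9 and 32.2 CPM in LPS and 28.4, 30.7, 31.2 and 28.9 CPM in LPS + Tan. The LPS + Tan lungs lay within the LPS range, and the log2 fold change was 0.025 (SE 0.083), the smallest error of the 10 genes. Lef1 had 4.78, 3.90, 4.81 and 3.52 CPM in LPS and 3.25, 4.75, 4.59 and 3.48 CPM in LPS + Tan. Both groups held high and low lungs of this gene, and its log2 fold change was -0.081 (SE 0.19). Nkd1, which binds Dishevelled and restrains the pathway, had 122, 96.3, 99.7 and 110 CPM in LPS and 126, 116, 121 and 115 CPM in LPS + Tan. All 4 LPS + Tan lungs were above the LPS mean of 107 ± 11.6 CPM, but LPS replicate 1 lay above 3 of them, and the log2 fold change was 0.16 (SE 0.090), with 0.10 to 0.23 when 1 sample was left out.

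Over the 10 genes, 7 had a positive log2 fold change and 3 a negative one, with a median of 0.14 beside 0.0070 over all 15706 genes tested, of which 51.8% were positive. All 10 passed the count filter. Of the ligands 5 of 7 were positive and of the targets 2 of 3, but for Wnt2, Wnt4, Wnt5a, Axin2 and Lef1 the sign changed in at least 1 of 17 alternatives. The levels of Wnt3a, Wnt4, Wnt7a and Nkd1 were above the LPS mean in all 4 LPS + Tan lungs on the log2 scale. For Wnt4 the margin in replicate 3 was only 0.0059, and in CPM that lung (2.28) was below the LPS mean (2.39). The share of all genes with this pattern was not counted, so nothing is read from it.

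**Figure D2:**
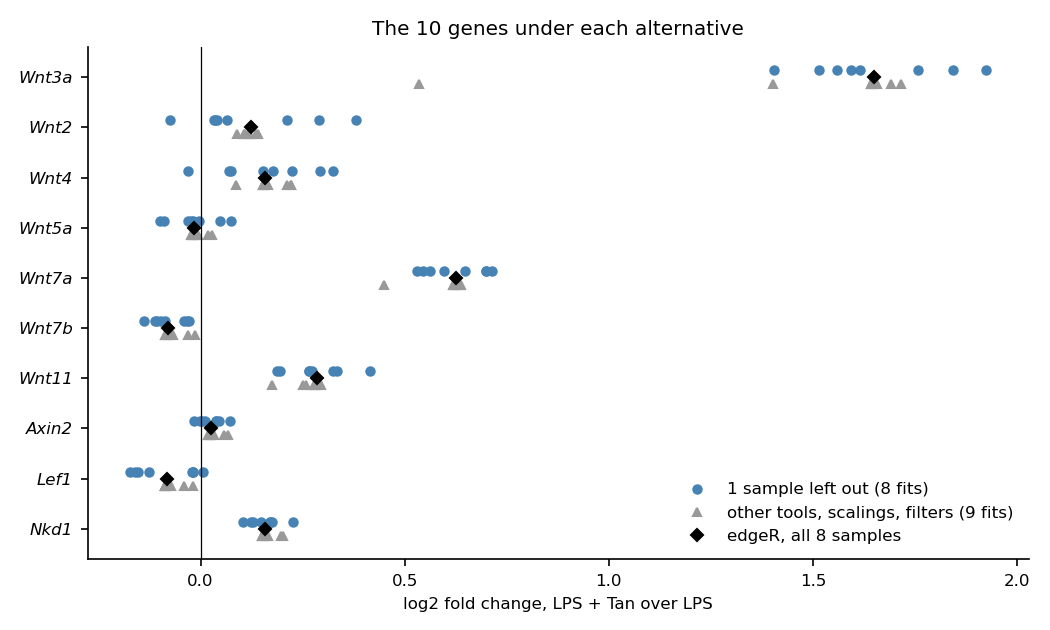
Log2 fold change of LPS + Tan over LPS (x axis) of the 10 genes in edgeR with all 8 lungs (black diamonds), with 1 lung left out (8 blue circles) and with other tools, scalings, filters or a replicate block (9 grey triangles). Wnt3a and Wnt7a stay right of 0 in all 17 alternatives, and the single triangle of Wnt3a near 0.53 is limma on log2(FPKM + 1), a scale that shrinks the change of a low gene.

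Compared per gene length, as FPKM, the targets Nkd1 and Axin2 led the ligands, and the target Lef1 was among them. Nkd1 had a median of 25.5 FPKM over the 8 lungs (21.4 to 29.0), above 83.9% of the genes tested, and Axin2 had 5.31 FPKM (4.84 to 5.95), above 51.3%. Their ranges overlapped neither each other nor those of the ligands. Wnt5a followed with 2.10 FPKM (1.73 to 2.47) and Wnt7a with 2.02 FPKM (1.37 to 3.15), and the order of these 2 could not be told, since Wnt5a was the higher one in 4 of 8 lungs. Below them came Wnt11 (1.25 FPKM), Wnt2 (1.16 FPKM), Lef1 (0.941 FPKM), Wnt4 (0.688 FPKM), Wnt7b (0.662 FPKM) and Wnt3a (0.427 FPKM). Every neighbouring pair from Wnt5a down had overlapping ranges, although Wnt7a was above Wnt11 in 8 of 8 lungs and Wnt2 above Lef1 in 7 of 8. Wnt3a, the gene with the largest difference, had the lowest median, above 15.4% of tested genes, and a range of 0.109 to 1.06 FPKM, the widest of the 10 on the log scale. Replacing FPKM by TPM left all 10 places as they were.

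**Figure D3:**
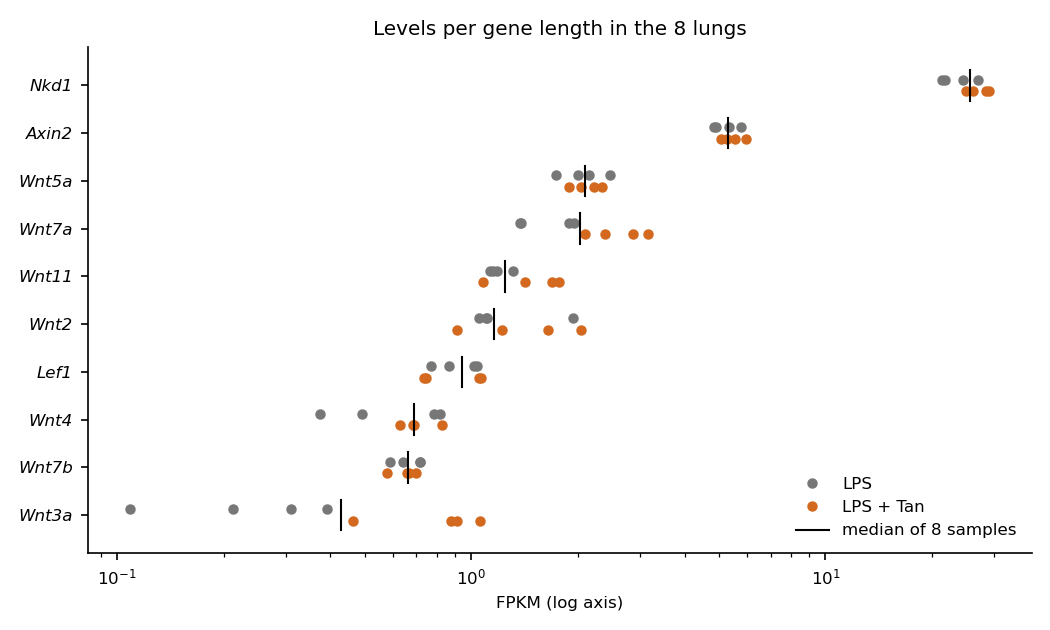
FPKM (log axis) of the 10 genes in the 8 lungs, ordered by their median (black bar), with LPS in grey and LPS + Tan in orange. Nkd1 and Axin2 stand clear to the right, the ligands and Lef1 overlap from about 2 FPKM downwards, and the LPS lungs of Wnt3a form the low tail.

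The mix of ligands was also taken as the share of each in the summed FPKM of the 18 ligand genes in the table. Wnt3a made up 3.55%, 2.30%, 1.82% and 0.999% of that sum in the LPS lungs, from high to low, and 3.45% to 6.46% in the LPS + Tan lungs. On this scale its groups just overlapped. The share of Wnt7a was 13.9 ± 1.96% in LPS and 17.6 ± 2.37% in LPS + Tan (SD, n = 4), and these ranges also overlapped. Wnt5a took 17.7 ± 1.33% and 14.3 ± 1.07%, with LPS lungs at 15.7% or more and LPS + Tan lungs at 15.3% or less, and Wnt7b 5.67 ± 0.591% and 4.39 ± 0.349%, again without overlap. As the levels of Wnt5a and Wnt7b did not differ beyond their spread, these lower shares go with a larger sum, 14.8 ± 1.28 FPKM in LPS + Tan and 11.8 ± 1.201 FPKM in LPS, whose groups overlapped (13.4 FPKM in LPS + Tan replicate 2 and 13.5 FPKM in LPS replicate 1). That sum includes Wnt3a (mean 0.256 FPKM in LPS and 0.827 FPKM in LPS + Tan) and Wnt7a (1.65 and 2.62 FPKM). Both were chosen with this contrast known, so nothing is read from the lack of overlap of the shares.

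The remaining ligand genes were fixed as a list of 12, of which 11 were in the table. Wnt1, Wnt3, Wnt8b, Wnt10a and Wnt16 had between 0 and 8 reads per lung and were not tested. Of the 6 tested, Wnt10b, a canonical ligand, was higher in LPS + Tan, with 3.29 ± 0.790 CPM in LPS and 4.71 ± 0.634 CPM in LPS + Tan and no overlap of the groups (log2 fold change 0.52, SE 0.21, unadjusted p = 0.0307 by edgeR's quasi-likelihood test). Wnt9a, the coding gene 16097 bases from Wnt3a on chromosome 11, had a median of 1.59 FPKM and a log2 fold change of 0.072, and did not pass. Wnt6, Wnt9b, Wnt2b and Wnt5b had log2 fold changes of 0.52, 0.40, 0.27 and -0.077 and did not pass. The value of Wnt6 was 0.32 and 0.33 without LPS + Tan replicates 4 and 1, and 0.73 without LPS + Tan replicate 2. Porcn, which acylates Wnt proteins, and Wls, which carries them to the cell surface, were at -0.32 (SE 0.24) and 0.19 (SE 0.095), and 0 of the 3 genes of ligand release passed. With 1 sample left out Porcn lay between -0.16, without LPS + Tan replicate 1 or LPS replicate 3, and -0.55, without LPS + Tan replicate 2 (unadjusted p = 0.0281 by edgeR).

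Over all 103 genes listed by role beside the 10, 101 were in the table and 86 were tested. These lists were also written with earlier results of the same data known, so that their counts are a description and not independent evidence of a direction. At an unadjusted p below 0.05, 13 were higher in LPS + Tan (15.1%, beside 2.87% of all genes) and 2 lower (2.33%, beside 2.25%). The 13 were Wnt10b, Fzd2, Znrf3, Dkk2, Sfrp2, Wif1, Apcdd1, Ctnnbip1, Pygo2, Nkd2, Vangl2, Prickle1 and Reck, and the 2 were Sfrp1 and Celsr1. With the fold threshold 4 were higher and 0 lower, beside 0.35% and 0.299%. The groups of 6 genes did not overlap upwards (6.98%, beside 1.58%) and those of 1 gene, Celsr1, downwards (beside 1.15%). The median log2 fold change of the 86 was 0.077, with 56 positive and 30 negative. None of the 86 had an adjusted p below 0.05 by edgeR or DESeq2, and the lowest adjusted p, that of Apcdd1 with both tools, was 0.850 by edgeR and 0.130 by DESeq2. The count of 13 fell to 3 (Apcdd1, Fzd2 and Wif1) without LPS + Tan replicate 1, to 6 without LPS + Tan replicate 3, and to 7 and 8 without LPS replicates 2 and 3. Over the 17 alternatives, Prickle1 and Ctnnbip1 passed in 14, Vangl2 and Reck in 13, Wnt10b and Celsr1 in 12, Pygo2 in 11, Sfrp1 in 10 and Nkd2 in 8. Dkk2 passed in 15 of the 16 alternatives that tested it and Sfrp2 in 12 of 16.

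Extracellular inhibitors, secreted or membrane-bound proteins that act on Wnt proteins or their receptors outside the cell, held the most of these genes, with 4 of 10 tested higher and 1 lower. Wif1, which binds Wnt proteins, had 7.41, 5.52, 4.05 and 1.63 CPM in LPS and 25.5, 7.58, 15.8 and 9.72 CPM in LPS + Tan. The lowest LPS + Tan lung, replicate 2, was just above the highest LPS lung, and the log2 fold change was 1.65 (SE 0.47, unadjusted p = 0.00526, adjusted p = 0.919). Apcdd1, a membrane-bound inhibitor that is itself a target of the pathway, had 8.999, 11.7, 8.91 and 13.6 CPM in LPS and 19.4, 16.8, 14.1 and 15.8 CPM in LPS + Tan, with a log2 fold change of 0.61 (SE 0.16, unadjusted p = 0.00347, adjusted p = 0.850). Both passed at an unadjusted p below 0.05 in 17 of 17 alternatives.

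Dkk2, which binds the LRP co-receptors, and Sfrp2, a soluble relative of the Frizzled receptors, were low, with group means of 0.450 ± 0.0946 and 1.003 ± 0.487 CPM for Dkk2 and 0.455 ± 0.192 and 1.05 ± 0.505 CPM for Sfrp2. Their log2 fold changes were 1.15 (SE 0.40, unadjusted p = 0.0165) and 1.19 (SE 0.45, unadjusted p = 0.0244), and LPS + Tan replicate 2 lay within the LPS range for both. Sfrp1, of the same family, went the other way, from 69.3 ± 7.34 to 53.0 ± 12.9 CPM (log2 fold change -0.39, SE 0.16, unadjusted p = 0.0399). Without LPS + Tan replicate 1 the differences of Dkk2, Sfrp2 and Sfrp1 were 0.82, 0.91 and -0.25 and none passed.

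**Figure D4:**
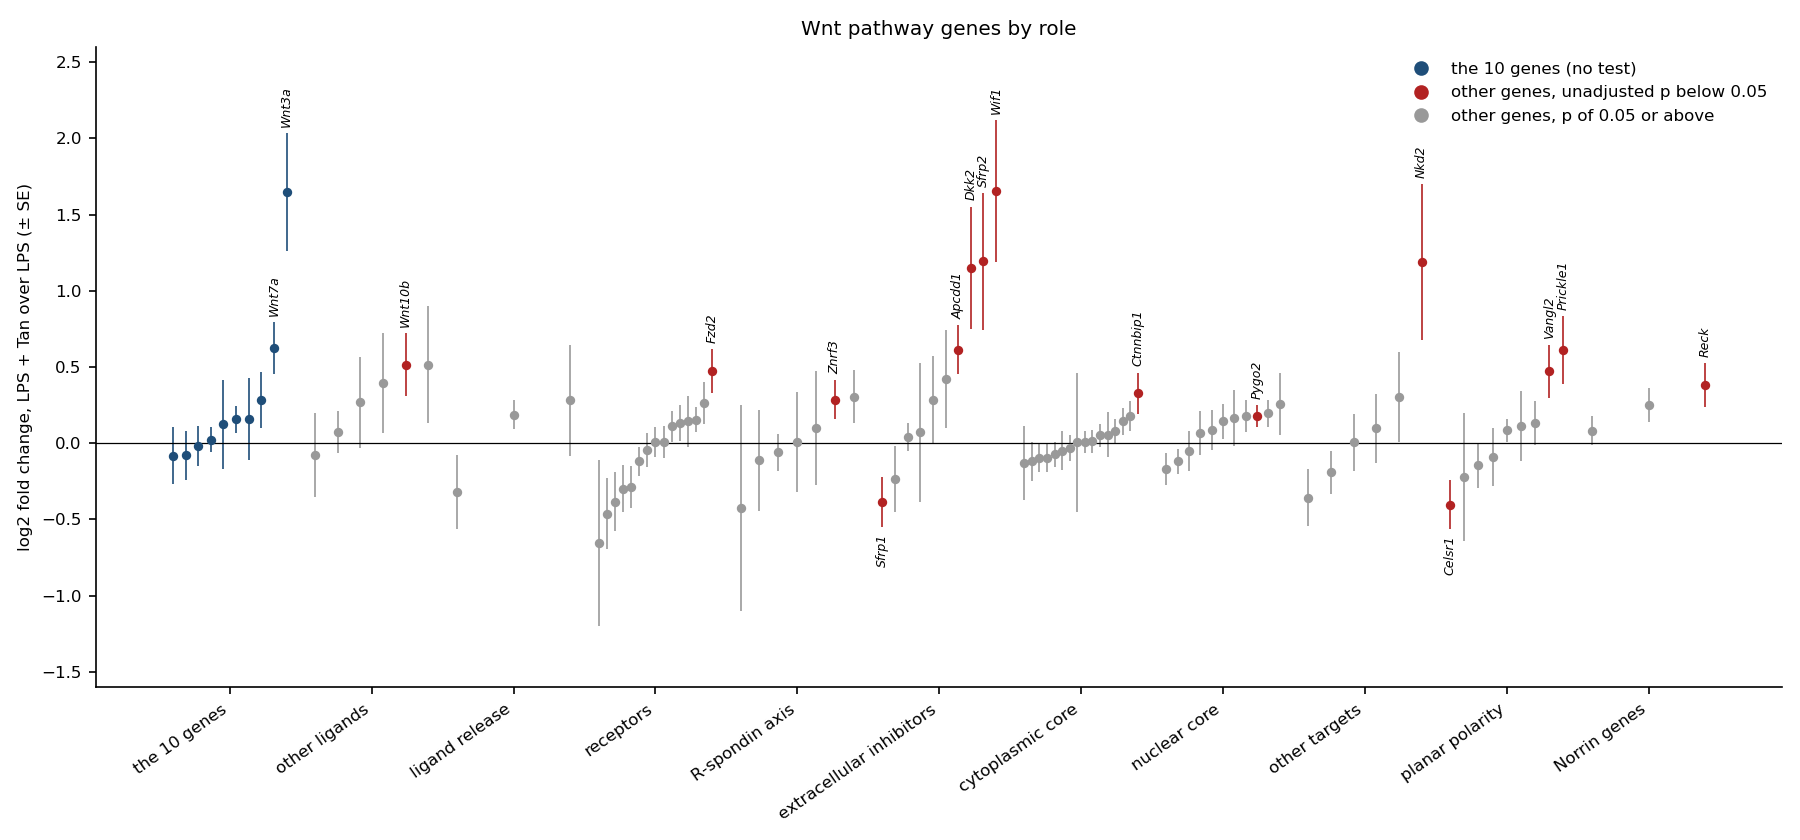
Log2 fold change of LPS + Tan over LPS (± SE, edgeR, n = 4 per group) for the 10 genes (blue, no test) and the 86 other tested Wnt pathway genes by role, in red where the unadjusted p was below 0.05 and grey otherwise. Extracellular inhibitors reach from the highest of the red points to one of the lowest, with Wif1 at 1.65 and Sfrp1 at -0.39, and the cytoplasmic core lies close to 0.

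Among 15 tested receptors and co-receptors 1 passed, upwards (6.67%, beside 2.87% of all genes). Fzd2, a Frizzled receptor, had 10.9, 11.0, 7.91 and 10.1 CPM in LPS and 16.6, 11.998, 12.7 and 14.1 CPM in LPS + Tan, with no overlap (log2 fold change 0.47, SE 0.14, unadjusted p = 0.00849), and it passed in 17 of 17 alternatives. Fzd4, the Frizzled receptor of endothelium and of the ligand Norrin, had 427 to 523 CPM in LPS and 355, 509, 357 and 347 CPM in LPS + Tan. Here 3 LPS + Tan lungs lay below every LPS lung and replicate 2 did not (log2 fold change -0.28, SE 0.14, unadjusted p = 0.0667 by edgeR, adjusted p = 0.924, not passing). Without that lung its difference was -0.44 (unadjusted p = 0.00185 by edgeR), and without any other it was -0.23 to -0.33 and did not pass. Of the R-spondin axis, whose ligases remove Frizzled receptors from the membrane, 1 of 7 passed, upwards (14.3%). This was the ligase gene Znrf3 (log2 fold change 0.29, SE 0.13, unadjusted p = 0.0497), which passed in 4 of 17 alternatives. The ligase gene Rnf43 had 0.31 (SE 0.17, and 0.18 without LPS replicate 3) and did not pass.

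Inside the cell 1 of 16 genes of the cytoplasmic core passed (6.25%) and 1 of 11 of the nuclear core (9.09%), both upwards, beside 2.87% of all genes. Ctnnbip1, whose product keeps β-catenin from TCF/LEF factors, had 10.8 ± 1.51 and 13.5 ± 1.59 CPM (log2 fold change 0.33, SE 0.14, unadjusted p = 0.0348). Pygo2, a nuclear co-factor of β-catenin, had 44.1 ± 2.16 and 49.9 ± 2.05 CPM (log2 fold change 0.18, SE 0.072, unadjusted p = 0.0309). Both had groups that did not overlap. Of 6 other targets tested 1 passed, upwards (16.7%), namely Nkd2, the relative of Nkd1, at 1.19 (SE 0.51, unadjusted p = 0.0420). Its 4 LPS + Tan values, however, were 11.6, 1.96, 6.32 and 2.86 CPM beside 3.91, 2.28, 1.67 and 2.10 CPM in LPS. Only 2 LPS + Tan lungs stood above the LPS lungs, and without replicate 1 the difference was 0.57 (SE 0.42) and did not pass. Myc, a growth regulator often listed as a target, was at -0.36 (SE 0.18, unadjusted p = 0.0826 by edgeR, adjusted p = 0.924), with -0.21 without LPS replicate 3 and -0.55 without LPS + Tan replicate 2 (unadjusted p = 0.00440 by edgeR).

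Planar polarity genes order cells within a sheet without β-catenin. Of 9 tested 2 were higher (22.2%, beside 2.87% of all genes) and 1 lower (11.1%, beside 2.25%). Prickle1 had a log2 fold change of 0.61 (SE 0.22, unadjusted p = 0.0212) and Vangl2 one of 0.47 (SE 0.17, unadjusted p = 0.0225). Celsr1, a cadherin of the same system, had 20.8, 20.1, 23.2 and 24.0 CPM in LPS and 16.5, 19.9, 18.9 and 11.4 CPM in LPS + Tan (log2 fold change -0.40, SE 0.16, unadjusted p = 0.0310), and the value was -0.26 without LPS + Tan replicate 4. The last list joined genes of Norrin signalling with co-receptor genes for Wnt7 proteins on endothelium. Ndp, the gene of Norrin, had 0 to 1 reads per lung and was not tested. Of the 3 genes tested 1 passed (33.3%, beside 2.87% of all genes), Reck, a co-receptor gene for Wnt7 and not for Norrin. Its log2 fold change was 0.38 (SE 0.15, unadjusted p = 0.0255). Reck had 33.9 to 35.4 CPM in LPS and 55.2, 32.2, 50.1 and 42.2 CPM in LPS + Tan. Its LPS + Tan replicate 2 was below all LPS lungs.

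The LPS + Tan lungs did not share these differences evenly. Replicate 1 had the highest level of its group in 12 of the 13 higher genes and replicate 2 the lowest in 10. Of the 13, 10 were above the LPS mean in all 4 lungs on the log2 scale, the exceptions being Dkk2, Nkd2 and Reck, each below it in replicate 2. Wnt3a showed the same order, with 2.11, 0.96, 1.86 and 1.93 above the LPS mean (log2 CPM) in replicates 1 to 4, and Wnt7a with 0.89, 0.34, 0.72 and 0.57. For the 10 genes together no lung was regularly the extreme one, since replicate 1 was highest in 4 and lowest in 3, and replicate 2 highest in 3 and lowest in 4.

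**Figure D5:**
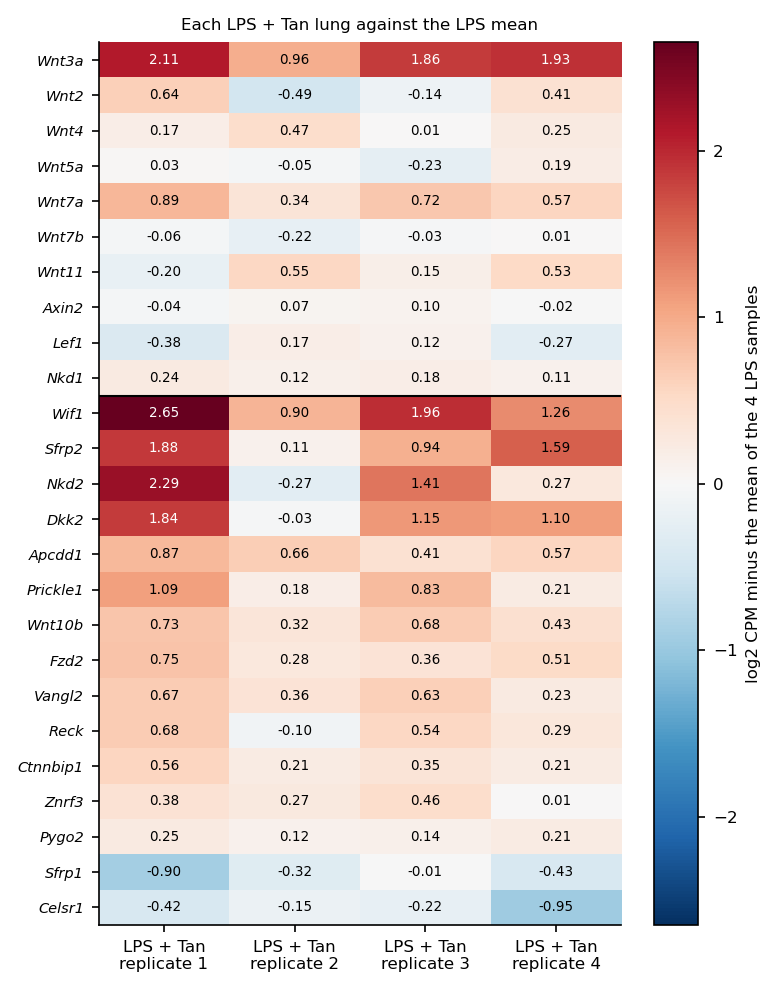
Log2 CPM of each LPS + Tan lung (columns) minus the mean of the 4 LPS lungs, for the 10 genes (above the line) and the 15 other pathway genes with an unadjusted p below 0.05 (below it, by log2 fold change), in red where higher and blue where lower. The column of replicate 1 is the deepest red in 12 of the 13 higher genes. That of replicate 2 holds the lowest value in 10, and is blue for Dkk2, Nkd2 and Reck.

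Markers of the cell types that make or receive Wnt signals were compared in the same way. The summed level of 6 endothelial markers (Pecam1, Cdh5, Cldn5, Tek, Kdr and Tie1) was 3215 to 3940 CPM in LPS and 3723 to 4172 CPM in LPS + Tan, and their mean log2 level was 0.17 higher (exact two-sided permutation p = 0.114, 70 arrangements, smallest possible 0.0286). The 6 did not move as one, with log2 fold changes of 0.51 for Tek, 0.37 for Kdr, 0.25 for Tie1, 0.19 for Pecam1, -0.029 for Cldn5 and -0.15 for Cdh5. Replicate 1 was the highest and replicate 2 the lowest of the LPS + Tan lungs for Tek (472 and 234 CPM), Tie1 (221 and 133 CPM) and Pecam1 (1462 and 986 CPM), while replicate 2 was the highest for Cdh5 (1428 CPM). The part of endothelium in the differences above was not tested. The sum for 8 fibroblast markers was 2696 to 3205 CPM in LPS and 2867 to 3009 CPM in LPS + Tan. These 8 did not move as one either, with 3 higher and log2 fold changes from -0.82 (Col13a1) to 0.62 (Inmt). For 6 AT1 (flat alveolar epithelial) markers the sums were 1850 to 2054 and 1848 to 2368 CPM. For 6 AT2 (surfactant-making) markers they were 6715 to 10541 and 6966 to 11507 CPM, and for 8 T cell markers 47.4 to 62.5 and 43.7 to 78.4 CPM. Over 12 lists the differences in mean log2 level lay between -0.48 (5 erythroid markers) and 0.17, and each had an adjusted p of 0.914 by the exact permutation test.

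Each of the 10 genes was set against the marker list of 1 cell type that makes it, over the 8 lungs. Of these 10 relations none passed, by exact permutation over all pairings of the 8 lungs with adjustment over the 10. Wnt2 and the fibroblast list had the lowest p, with Pearson's r = 0.619 (exact p = 0.0967, adjusted 0.602), Spearman's rho = 0.571 (exact p = 0.151, adjusted 0.577), r = 0.710 within groups and r = 0.704 without the 2 lungs farthest from the median of the list. Nkd1 and the fibroblast list had r = 0.331 (exact p = 0.432, adjusted 0.617) and rho = 0.381 (exact p = 0.360, adjusted 0.577), with r = 0.736 within groups and r = 0.810 without the 2 farthest lungs. Wnt3a and the AT1 list had r = 0.457 (exact p = 0.257) and rho = 0.357 (exact p = 0.389, adjusted 0.602 for r and 0.577 for rho), and r was -0.596 without the 2 farthest lungs, so that it rested on those. Without TMM factors r of this pair was 0.686 (exact p = 0.0563, adjusted 0.290), with rho = 0.452 (exact p = 0.267, adjusted 0.669) and r = 0.0069 without the 2 farthest lungs. Wnt2 and the fibroblast list had r = 0.644 (exact p = 0.0870, adjusted 0.290) and rho = 0.738 (exact p = 0.0458, adjusted 0.415) without TMM factors, and r = 0.441 without the 2 farthest lungs. Nkd1 and the fibroblast list had r = 0.483 (exact p = 0.225, adjusted 0.450) and rho = 0.595 (exact p = 0.132, adjusted 0.441) without TMM factors. There r of Nkd1 was 0.780 within groups but only 0.248 without the 2 farthest lungs. For Lef1 and the T cell list, with TMM factors, r was 0.498 (exact p = 0.218, adjusted 0.602) and rho 0.405 (exact p = 0.327, adjusted 0.577). Its r was 0.030 without the 2 farthest lungs.

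The members were also compared with each other and with all tested genes over the 8 lungs, as a description, since the points share the groups and the libraries. The highest Pearson's r of log2 CPM among the 10 was that of Wnt3a with Wnt7a (0.813), which was 0.397 once the group means were taken out, followed by Wnt3a with Nkd1 (0.791, and 0.624 within groups). Axin2 followed Wnt4 (0.734) and Nkd1 (0.511) more than Lef1 (0.140), and the lowest value was that of Wnt5a with Axin2 (-0.524). The genes most like Wnt3a were Tdrkh (r = 0.976), Rarg, a retinoic acid receptor (0.968), Ntn4, a netrin of basement membranes (0.966), Rgl2 (0.964) and Adgra3 (0.963), and within groups these r values were 0.896 to 0.972. Most like Axin2 were Igdcc4 (0.961), Rbm20 (0.948), Efcab11 (0.905), Kcp (0.905) and Hpcal1 (0.901), and most like Lef1 were Foxp4 (0.950), Kdm8 (0.923), Lgr4, an R-spondin receptor gene (0.913), Sowahb (0.910) and Foxo3 (0.903). Each is the highest of all other genes tested, and a search of this size finds high values.

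In GRCm38.p6, Wnt3a lies at chr11:59248036-59290751, Wnt7a at chr6:91363981-91411353, Axin2 at chr11:108917828-108950783, Lef1 at chr3:131110297-131224357 and Nkd1 at chr8:88521342-88594887. Exons of Lef1 share 1208 bases with Gm43352 on the opposite strand in GENCODE M21, and those of Wnt11, Wnt5a, Wnt7b and Axin2 share 364, 358, 324 and 209 bases with Gm8398, Gm2670, AU022754 and Gm11670. Whether the counting used strand is not given in the sources used here, so reads of these partners could be in their values. Wnt3a, Wnt2, Wnt4, Wnt7a and Nkd1 share no exon base with another gene.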

How the data were processed

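RNA-seq values of lung from 4 LPS and 4 LPS + Tan mice were used, grouped by the labels, with 0 columns left without a sample. The authors deposited raw read counts per gene and FPKM values for 24584 genes. A check on both deposited tables showed that FPKM is the count scaled to a fixed length per gene and to the library total. GRCm38 and mm10 come from the submitters' processing notes, and the aligner, counter and annotation were not given in any source used here. Labels and methods name different library kits.

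Counts were fitted in edgeR 4.0.16 (R 4.3.3) with filterByExpr, TMM scaling and the quasi-likelihood test, without covariates, and p was adjusted by the Benjamini-Hochberg method over 15706 genes. The standard error is the log2 fold change divided by the square root of F. Alternatives were upper-quartile and RLE scaling, DESeq2 1.42.0, no count filter, 1 CPM in 4 samples, limma 3.58.1 (voom, log2(FPKM + 1) and log2(FPKM + 0.1)), a replicate block and each sample left out. For log2 CPM 0.5 was added to each count. Scripts were tested on simulated data. The named genes are the 10, the 2 genes of lowest p and any with an unadjusted p below 0.05 in each pathway list, all other ligands and the 5 genes most like Wnt3a, Axin2 and Lef1. The members and lists were chosen with earlier results of these data known. Total counts were 38895654 to 39931970 per sample. The variance of the 10 genes between samples of a group was 0.682 to 50.5 times counting noise.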

Additional observations from a re-analysis of the deposited data

Results flagged for a closer look

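In groups of 4 lungs, the gap between the highest or lowest lung and its nearest neighbour was divided by the range of the group on the log2 CPM scale, and shares above Dixon's 95% critical value for 4 samples are given here. Of 68 groups examined 4 were above it, where chance alone gives about 1 in 20 groups, or 3.4. Wnt2 was highest in LPS replicate 1 (0.868) and so was Wnt11 (0.891). Fzd4 was highest of the LPS + Tan group in replicate 2 (0.929), and Ctnnbip1 was lowest of the LPS group in replicate 2 (0.933).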

How the results depend on the processing

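Of 170 alternative values of the 10 genes, 169 differed from the value given by less than the spread between replicates, and the log2 fold change of Wnt3a moved to 0.53 in limma on log2(FPKM + 1). The other pathway genes named by p (the 2 of lowest p and any with an unadjusted p below 0.05 in each list) had 405 alternative values. Of these 325 kept their side of the threshold, 64 lost it, 16 gained it and 0 reversed. Wnt2b, Wnt5b, Wnt9a, Wnt9b and the genes most like Wnt3a, Axin2 and Lef1 were not in this count. Nothing is read from counts of the 10 genes, which were chosen on this contrast. The number of them past the study's thresholds was 0 in place of 1 by limma on log2(FPKM + 1), and 1 (Wnt3a) had an adjusted p below 0.05 by DESeq2 in place of 0, with 0 in every other alternative. With each sample left out, 2 to 3 of the 10 were higher at an unadjusted p below 0.05, beside 2.87% of all genes with no sample left out. That share was not counted for the fits with a sample left out or with the replicate block. The 13 other pathway genes that were higher became 3 to 17 with each sample left out, and the 2 that were lower became 0 to 7, and 0 by limma on log2(FPKM + 1) and log2(FPKM + 0.1). The 4 past the fold threshold became 2 with at least 1 CPM in 4 samples, 1 by limma on both FPKM scales and 1 to 4 with a sample left out, and the 0 below it became 0 to 1. The cause was not tested, except that the FPKM scales shrink low genes and the CPM filter removes Dkk2 and Sfrp2. Lungs with the same replicate number did not deviate together (correlations 0.123, -0.031, -0.148 and 0.020), so the numbers do not pair them, and with the replicate block 2 of the 10 and 12 other genes were higher and 0 and 3 lower. Without TMM factors the marker lists had adjusted p values of 0.873 to 0.943 by the exact permutation test. Wnt3a had the fewest reads of the 10 genes, 12 to 115 per lung.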
